A study of Arabidopsis thaliana with 4 samples.

Results

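Transcript levels of 41 genes for arabinogalactan proteins and fasciclin-like arabinogalactan proteins were compared between ethylene and air in dark-grown Arabidopsis seedlings. The genes were taken from a list of 25 AGP loci, between AGP1 and AGP41, and 16 FLA loci, between FLA1 and FLA18, among 33414 loci named in the deposited table. Each was found in 1 entry of its own. The members were chosen by family name, with their FPKM and calls in this same comparison of ethylene with air already known. The changes and calls below are therefore a description of the families, and no test is built on them. RNA was sequenced from 4 libraries of srt1srt2 mutant seedlings in the Col ecotype, with mutations in the sirtuin deacetylase genes SRT1 and SRT2 in the control and the treated libraries alike. Seedlings were 3 days old, etiolated and grown at 24 °C, and RNA was taken from seedlings without a named organ. After growth they received hydrocarbon-free air for 4 hours (2 libraries) or ethylene at 10 ppm in such air for 4 hours (2 libraries). Wild-type seedlings were not analysed here, and the mutant's response is therefore not set against that of the wild type.

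Arabinogalactan proteins are cell surface glycoproteins whose short protein backbones carry large sugar chains of galactose and arabinose on hydroxyproline. Proline next to alanine, serine or threonine is the typical setting for such chains. Many are tied to the outer face of the plasma membrane by a glycosylphosphatidylinositol (GPI) anchor, and they are known for parts in cell expansion, root growth and reproduction. Fasciclin-like members carry, besides the arabinogalactan stretches, a fasciclin domain, a fold used in cell adhesion in animals. Ethylene limits the elongation of the dark-grown hypocotyl and root.

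The AG peptides are the smallest members, and their coding sequences are shown because they include both the most abundant transcripts of the families and the AGP with the largest fall among called members. The sequences are the coding strands of the RefSeq TAIR10.1 annotation, from start codon to stop codon. Capitals mark codons of alanine-proline, proline-alanine, serine-proline or threonine-proline pairs anywhere in the coding sequence. They do not show which pairs carry sugar chains.
AGP21: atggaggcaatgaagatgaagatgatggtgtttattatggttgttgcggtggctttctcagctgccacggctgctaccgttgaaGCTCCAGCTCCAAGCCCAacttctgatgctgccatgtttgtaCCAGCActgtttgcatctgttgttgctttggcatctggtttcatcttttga
AGP12: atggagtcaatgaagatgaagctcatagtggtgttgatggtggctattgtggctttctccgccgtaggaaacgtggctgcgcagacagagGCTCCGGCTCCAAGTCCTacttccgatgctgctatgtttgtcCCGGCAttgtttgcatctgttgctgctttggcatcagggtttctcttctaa
AGP13: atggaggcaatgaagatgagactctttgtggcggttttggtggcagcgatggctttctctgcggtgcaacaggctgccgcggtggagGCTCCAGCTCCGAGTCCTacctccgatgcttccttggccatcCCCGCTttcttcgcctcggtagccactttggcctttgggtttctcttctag
AGP14: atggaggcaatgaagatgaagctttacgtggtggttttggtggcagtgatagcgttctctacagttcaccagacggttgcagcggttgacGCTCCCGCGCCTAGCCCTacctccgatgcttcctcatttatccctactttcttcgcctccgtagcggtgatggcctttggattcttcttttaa
AGP22: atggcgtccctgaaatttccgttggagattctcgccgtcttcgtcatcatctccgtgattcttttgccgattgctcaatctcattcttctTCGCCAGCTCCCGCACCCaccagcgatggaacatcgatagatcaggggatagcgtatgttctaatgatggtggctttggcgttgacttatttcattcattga
AGP16: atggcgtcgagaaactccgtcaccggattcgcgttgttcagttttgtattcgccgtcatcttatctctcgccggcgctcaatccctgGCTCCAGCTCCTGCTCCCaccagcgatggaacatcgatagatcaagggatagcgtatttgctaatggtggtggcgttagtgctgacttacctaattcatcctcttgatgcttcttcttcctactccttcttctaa
AGP20: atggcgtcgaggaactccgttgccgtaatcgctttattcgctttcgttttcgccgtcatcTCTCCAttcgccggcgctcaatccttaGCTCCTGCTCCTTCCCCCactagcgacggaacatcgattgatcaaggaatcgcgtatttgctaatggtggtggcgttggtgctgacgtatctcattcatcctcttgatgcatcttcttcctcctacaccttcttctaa
The coding region of AGP21 (AT1G55330) lies at chr1:20648634-20648810 on the minus strand. That of AGP12 (AT3G13520) lies at chr3:4409087-4409269 on the plus strand. AGP13 (AT4G26320) is coded at chr4:13317235-13317414 on the minus strand and AGP14 (AT5G56540) at chr5:22893243-22893425 on the plus strand. Each of these 4 is coded by a single exon. AGP22 (AT5G53250, chr5:21603715-21604007, plus strand), AGP16 (AT2G46330, chr2:19018730-19019108, minus strand) and AGP20 (AT3G61640, chr3:22810283-22810629, minus strand) each have 2 coding exons, joined in the sequences shown.

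All 11 AG peptides code for 58 to 74 residues, and each holds an unbroken run of at least 18 capital bases. Proline, alanine, serine and threonine made up 38.1% to 50.8% of their translated residues. Shares and pairs were counted over whole translated sequences, with no signal sequence removed, so they do not describe the finished proteins. In the 9 classical members the share was 53.6% to 72.6% over 125 to 191 residues, with 11 to 40 of the marked residue pairs. The 3 lysine-rich members (AGP17, AGP18 and AGP19) held 40 to 59 pairs and 2.82% to 5.76% lysine. The non-classical AGP30 and AGP31 had 239 and 359 residues, with 12.6% and 14.2% lysine. Fasciclin-like proteins of group A were 246 to 254 residues long and those of group B 445 to 489. Groups A to D follow the usual sequence-based division of the family, and they were applied after the values had been seen.

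Values are the authors' FPKM, fragments per kilobase of transcript set against the mapped fragments, with 1 pooled value per condition. Levels of different genes are set side by side on this scale, which is per length. Coding regions of the members ran from 177 bases in AGP21 to 1470 in FLA15. How well FPKM compares such short genes with longer ones was not tested, which limits ranks, sums and shares. No value per library was used, so the spread between libraries cannot be shown, and whether libraries of the conditions overlap is unknown. The depth of the libraries is also unknown. A gene is called higher or lower where the authors' deposited table gives a q of 0.05 or less (Cuffdiff with Benjamini-Hochberg adjustment). Standard errors (SE) are on the log2 scale and are those implied by the deposited statistic. No label ties the paired libraries of a condition to separately grown plants. The p-values therefore speak only for these libraries, and the spread between them may be technical. The SE of several abundant members were nearly the same, 0.204 for AGP12, 0.205 for AGP15 and 0.205 for FLA8. Whether an SE reflects the scatter of its own gene between libraries cannot be told from pooled values. In RNA from seedlings, fewer cells of a type and less RNA per cell cannot be told apart.

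SRT1 was at 3.88 FPKM in air against 3.23 in ethylene, and SRT2 at 1.92 and 2.09, and neither was called (q 0.735 and 0.937 in the authors' deposited table). With both conditions in the mutant, these values cannot serve as a check of the genotype, and the name of the deposited sheet mentions srt1 alone. The ethylene-responsive genes ERF1, ETR2 and EBF2 were all called higher. ERF1, a transcription factor, was listed at 0 in air and at 9.07 FPKM in ethylene, the receptor gene ETR2 at 7.90 and 45.7 FPKM, and EBF2, an F-box gene of ethylene signalling, at 95.5 and 209 FPKM. Across the 20786 entries that were tested and name a gene, the log2 change had a median of 0.0078.

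Most transcripts of both families were lower in ethylene. Of the 41 genes 40 were tested, 22 were called lower and 3 higher, and 15 were tested and not called. Over all tested entries naming a gene, 6.5% were called lower and 4.79% higher, 11.3% in either direction. At a mean of 10 FPKM or more, 22 of 34 members were called lower and 3 higher, beside 8.88% and 6.32% of the 11720 entries at that level, 15.2% in either direction. Among AGP genes 14 of 25 were called lower and 1 higher, and the median log2((ethylene + 1)/(air + 1)) was -0.75. Among the 15 tested FLA genes 8 were called lower and 2 higher, with a median of -0.43. The value in ethylene was below that in air in 32 of the 40 tested members, whether called or not.

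**Figure D1:**
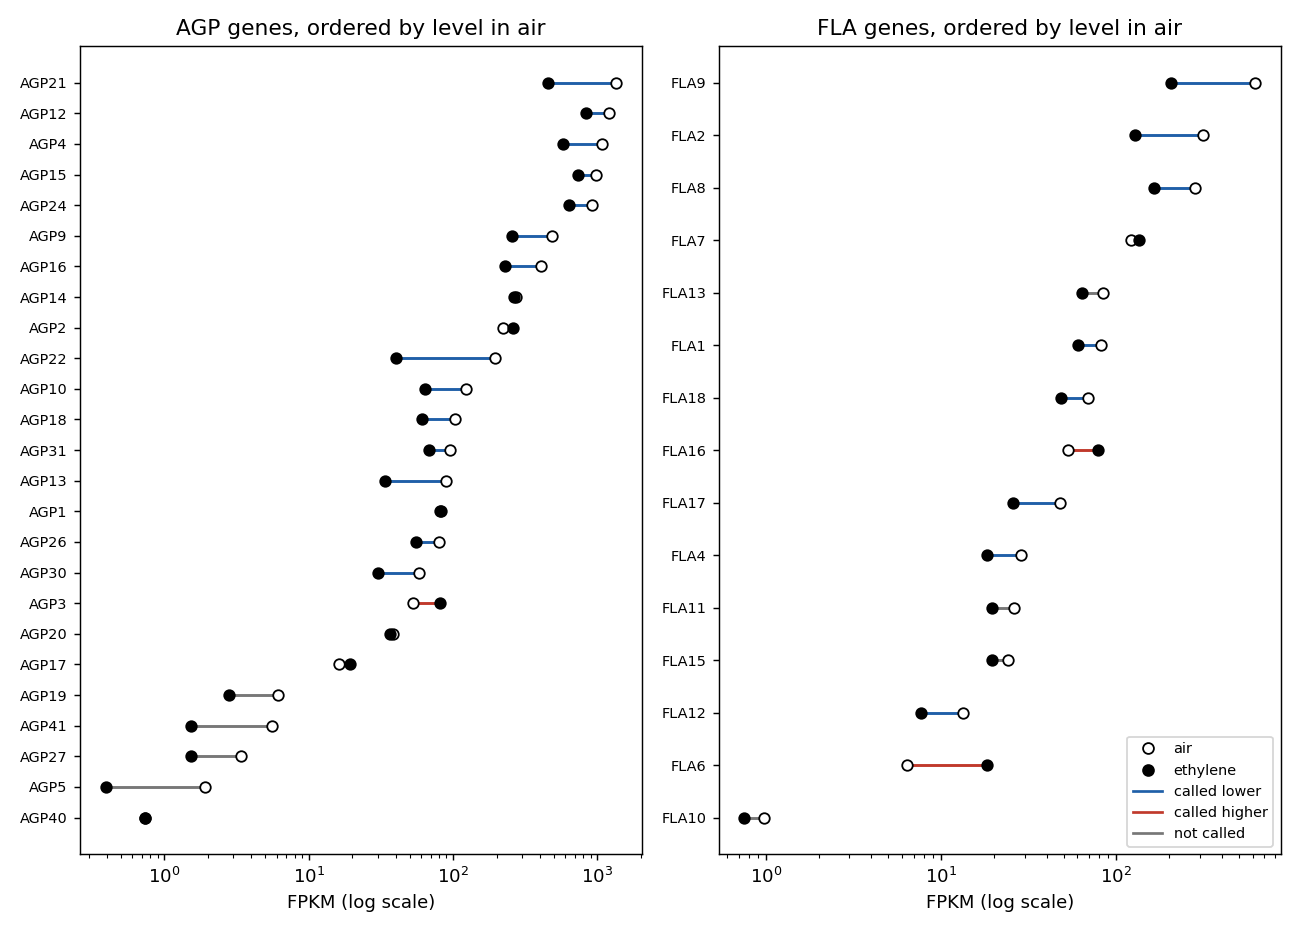
FPKM in air (open circles) and ethylene (filled circles) of 25 AGP genes (left) and 15 FLA genes (right) on log axes, ordered by the level in air, with the line coloured by the authors' call. FLA3, near 0 in air, is left out. The 5 highest AGP genes in air, between 913 and 1351 FPKM, were all called lower, and FLA6 shows the widest shift to the right.

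The calls depend on how the deposited statistic is read. When the statistic was referred to a standard normal curve, 14 of the 25 calls held and 11 did not. Those lost were the higher calls of AGP3 and FLA16 and the lower calls of AGP12, AGP15, AGP24, AGP26, AGP31, FLA1, FLA4, FLA12 and FLA18. Under that reading 3.2% of all tested entries were called lower and 2.57% higher, 5.78% in either direction. With a deposited q of 0.01 or less, 18 members were lower and 3 higher, beside 4.79% and 3.35% of all tested entries, 8.14% in either direction. Of 9 members at least 2-fold lower 5 were called, and the 1 member at least 2-fold higher was called. All 6 of these calls held under the standard normal reading and at a q of 0.01.

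Among the AG peptides 7 of 11 were called lower and none higher. AGP22 had the widest difference of any called member. It was at 196.7 FPKM in air against 40.2 in ethylene, 4.89-fold lower, with a log2 ratio of -2.29 (SE 0.27) and a deposited q of 0.000878. That q is the smallest the deposited table holds and is shared by every entry at its smallest p of 5e-05. AGP21 has been linked to root hair cell fate through its sugar chains. Its transcript was at 1351 FPKM in air against 457 in ethylene, 2.95-fold lower, with a log2 ratio of -1.56 (SE 0.25). In air AGP21 ranked 47th of all entries naming a gene, and in ethylene 218th. AGP13 was at 88.6 and 33.9 FPKM, a log2 ratio of -1.39 (SE 0.36).

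The other called AG peptides were lower by less. AGP16 was at 405 FPKM in air against 228 in ethylene, with a log2 ratio of -0.83 (SE 0.23) and a deposited q of 0.000878. AGP12 was at 1208 and 835 FPKM, with a log2 ratio of -0.53 (SE 0.20) and a deposited q of 0.00429. It was the most abundant member in ethylene. AGP24 was at 913 and 636 FPKM (log2 ratio -0.52, SE 0.21, deposited q 0.00233), and AGP15 at 979 and 728 FPKM (log2 ratio -0.43, SE 0.20, deposited q 0.0336). In air these 3 ranked 54th, 91st and 73rd of all entries naming a gene, and in ethylene 89th, 132nd and 110th.

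The 4 AG peptides that were not called differed widely in level. AGP14, whose mutants have longer root hairs, was at 271 FPKM in air against 264 in ethylene, and AGP20 at 38.3 and 36.8 FPKM. Their log2 ratios were -0.04 (SE 0.22) and -0.06 (SE 0.30). AGP40 was low, at 0.730 and 0.737 FPKM. AGP41 was at 5.61 FPKM in air against 1.53 in ethylene, a 3.67-fold lower value with an SE of 1.01 on the log2 scale and a q of 0.174 in the authors' deposited table.

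Among the 9 classical AGP genes 4 were called lower and 1 higher. AGP4, also called JAGGER, acts in the female reproductive tract to block entry of further pollen tubes. It was at 1079.9 FPKM in air against 577 in ethylene, with a log2 ratio of -0.90 (SE 0.20) and a deposited q of 0.000878. AGP9 was at 482 and 256 FPKM (log2 ratio -0.91, SE 0.21) and AGP10 at 124 and 64.2 FPKM (log2 ratio -0.95, SE 0.24), both with that same q. These 3 were lower by close to the same factor, 1.87-fold, 1.88-fold and 1.93-fold, although their levels differed. AGP26 was at 80.05 and 54.98 FPKM, a log2 ratio of -0.54 (SE 0.26) and a deposited q of 0.0251.

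AGP3 was the only AGP gene called higher. It was at 52.9 FPKM in air against 81.5 in ethylene, with a log2 ratio of 0.62 (SE 0.24) and a deposited q of 0.00302. AGP2, whose protein is 63.3% identical to that of AGP3, was at 223 FPKM in air against 260.04 in ethylene and was not called (deposited q 0.443). AGP1 was at 81.0 and 82.6 FPKM, a log2 ratio of 0.03 (SE 0.24). AGP5 and AGP27 were low, at 1.91 and 3.37 FPKM in air against 0.393 and 1.54 in ethylene. Both had differences of over 2-fold that were not called, with SE of 1.62 and 1.07 on the log2 scale.

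Of the 3 lysine-rich genes only AGP18, needed for the start of female gametophyte development, was called. It was at 103 FPKM in air against 60.9 in ethylene, with a log2 ratio of -0.76 (SE 0.23) and a deposited q of 0.000878. AGP17, whose mutant resists transformation by Agrobacterium, was at 16.2 and 19.2 FPKM, with no call. AGP19, which is needed for normal growth, was at 6.13 and 2.82 FPKM, with a deposited q of 0.175.

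Both non-classical genes were called lower. AGP30, expressed in roots and linked to root regeneration and the timing of germination, was at 58.2 FPKM in air against 30.1 in ethylene. Its log2 ratio was -0.95 (SE 0.24) and its deposited q 0.000878. AGP31, a vascular wall protein that binds pectin, was at 94.8 and 68.1 FPKM, with a log2 ratio of -0.48 (SE 0.21) and a deposited q of 0.00927.

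**Figure D2:**
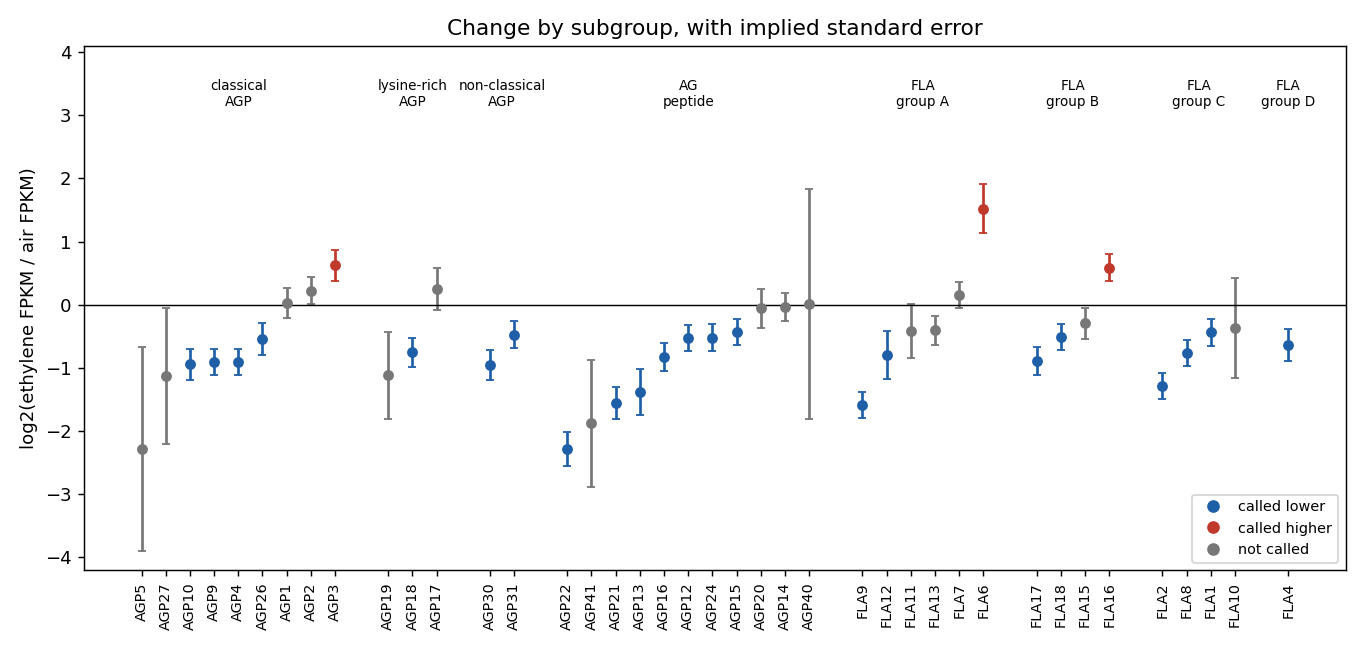
Log2 ratio of ethylene to air FPKM for the 40 tested members by subgroup; points are single pooled values, bars are the SE implied by the authors' statistic, and colours give the authors' call. AGP22 at -2.29 is the lowest called member and FLA6 at 1.52 the highest; AGP5, AGP27, AGP40 and AGP41 have the long bars of low transcripts.

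The fasciclin-like genes of group A, with a single fasciclin domain, held both the largest fall and the largest rise of the FLA family. FLA9 was at 618 FPKM in air against 206 in ethylene. That is 3.00-fold lower, with a log2 ratio of -1.59 (SE 0.21) and a deposited q of 0.000878. FLA6 went the other way, from 6.35 FPKM in air to 18.2 in ethylene. Its log2 ratio was 1.52 (SE 0.39), with the same q, and it was the only member at least 2-fold higher.

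The other group A genes lay between these 2. FLA12 was at 13.4 FPKM in air against 7.70 in ethylene, a log2 ratio of -0.80 (SE 0.38) and a deposited q of 0.0321. FLA11, which with FLA12 acts in secondary walls of stems, was at 26.2 and 19.6 FPKM, with no call (deposited q 0.501). FLA13 was at 83.9 and 63.3 FPKM, just outside the threshold with a deposited q of 0.0732. FLA7 was at 121 and 134 FPKM, with a log2 ratio of 0.15 (SE 0.21).

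Group B, with a pair of fasciclin domains and no GPI signal, was mixed. FLA17 was at 47.9 FPKM in air against 25.8 in ethylene (log2 ratio -0.89, SE 0.22, deposited q 0.000878), and FLA18 at 68.8 and 48.3 FPKM (log2 ratio -0.51, SE 0.21, deposited q 0.00927). FLA16, a gene of stem walls, was called higher, at 52.7 FPKM in air against 79.1 in ethylene. Its log2 ratio was 0.59 (SE 0.21) with a deposited q of 0.000878. FLA15 was at 24.1 and 19.6 FPKM, with no call.

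In group C, FLA2 and FLA8 carried most of the transcript. FLA2 was at 311 FPKM in air against 127 in ethylene, 2.44-fold lower, with a log2 ratio of -1.29 (SE 0.21) and a deposited q of 0.000878. FLA8 was at 279 and 164 FPKM (log2 ratio -0.77, SE 0.20) with the same q. FLA1, which acts in shoot regeneration, was at 81.8 and 60.4 FPKM, with a log2 ratio of -0.44 (SE 0.22) and a deposited q of 0.0403. FLA10 was under 1 FPKM in both conditions and not called. FLA3, a gene of pollen development, was near 0 in air and at 0.255 FPKM in ethylene and was not tested. FLA4, the group D gene known as SOS5, supports root growth in a pathway with the FEI receptor kinases. It was at 28.6 FPKM in air against 18.3 in ethylene, with a log2 ratio of -0.64 (SE 0.25) and a deposited q of 0.00657.

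Summed FPKM was lower in ethylene in every subgroup, by different factors. The 25 AGP genes summed to 7863 FPKM in air against 4822 in ethylene, a 1.63-fold lower sum, and the 16 FLA genes to 1764 and 993 FPKM, 1.78-fold lower. The AG peptides alone summed to 5457 and 3262 FPKM. Group B changed least, from 193 to 173 FPKM, since the higher value of FLA16 offset part of the lower values of FLA17, FLA18 and FLA15. Together the 41 genes held 1.03% of the summed FPKM of all entries naming a gene in air and 0.624% in ethylene.

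**Figure D3:**
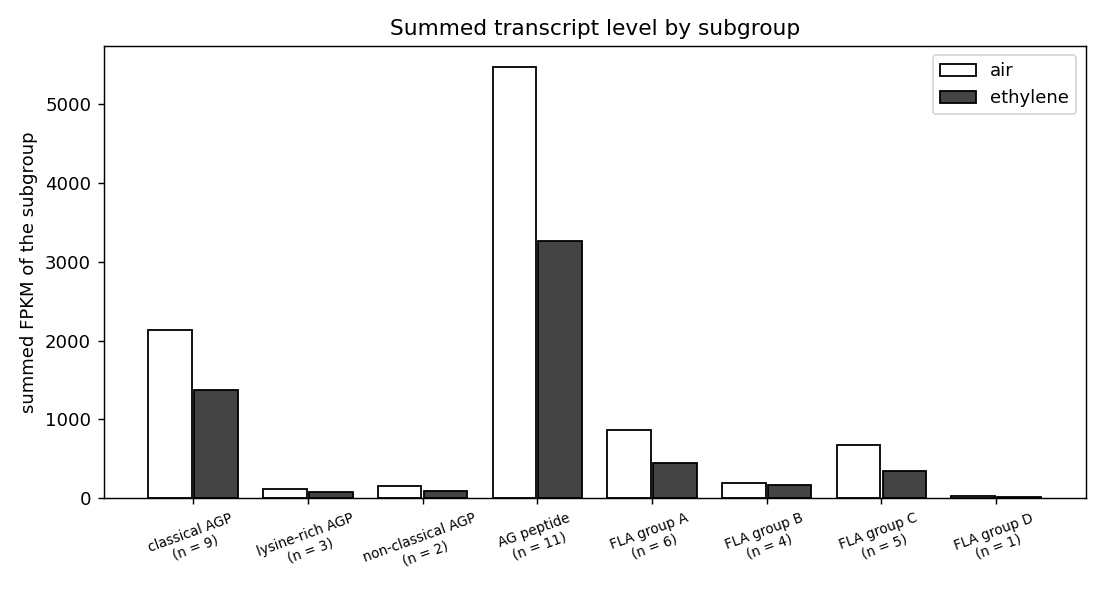
Summed FPKM of each subgroup in air (open bars) and ethylene (filled bars), with the number of genes in brackets; each bar is a sum of single pooled values, so no error is drawn. The AG peptide bars, 5457 and 3262 FPKM, are the tallest in both conditions.

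A few genes made up most of these sums. AGP12, AGP21, AGP15, AGP4 and AGP24 held 70.3% of AGP FPKM in air and 67.1% in ethylene. Within that set the order changed: AGP21 held 17.2% of AGP FPKM in air and 9.48% in ethylene, while AGP12 held 15.4% and 17.3%. Among FLA genes, FLA9, FLA8 and FLA2 held 68.5% in air and 50.05% in ethylene. FLA9 alone went from 35.1% of FLA FPKM to 20.8%. FLA7 held 6.85% in air and 13.5% of the smaller sum in ethylene, while its own level was not called. Of the 41 genes, 5 were among the 100 most abundant entries in air and 1, AGP12, in ethylene.

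There were 11 pairs of members with at least 70% identical coding sequence, a limit set after the values were seen. In 3 pairs both genes were called lower, in 2 they were called in opposite directions, and in 6 only 1 was called. Both opposite pairs hold FLA16. Under the standard normal reading, which drops AGP12, FLA16 and FLA18, no pair had both genes called, 9 had 1 called gene and 2 had 0. The log2 changes had the same sign in 8 of the 11 pairs. That count stands beside lower values in ethylene in 32 of the 40 tested members. Some genes are in several pairs, so the pairs are not separate. The pair with the highest identity, 84.4%, was AGP16 and AGP20, where AGP16 had a log2 change of -0.83 and AGP20 of -0.06. AGP13 and AGP14, printed above, are 77.0% identical in coding sequence and had log2 changes of -1.36 and -0.04. Coding sequences of AGP12 and AGP21 are 74.3% identical; AGP21 was the higher of them in air and the lower in ethylene.

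FLA9 and FLA13 are 77.6% identical, with log2 changes of -1.58 and -0.40. In group B, FLA16 was called higher while FLA17 and FLA18, 72.2% and 71.8% identical to it, were called lower; of these calls only that of FLA17 held under the standard normal reading. FLA8 and FLA10 share 82.3% of their coding sequence, and FLA10 was nearly silent. The differences within pairs were not tested. How the authors' software assigned reads matching both genes of a pair is not given in the sources used here, so values of the closest pairs are uncertain to that extent.

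**Figure D4:**
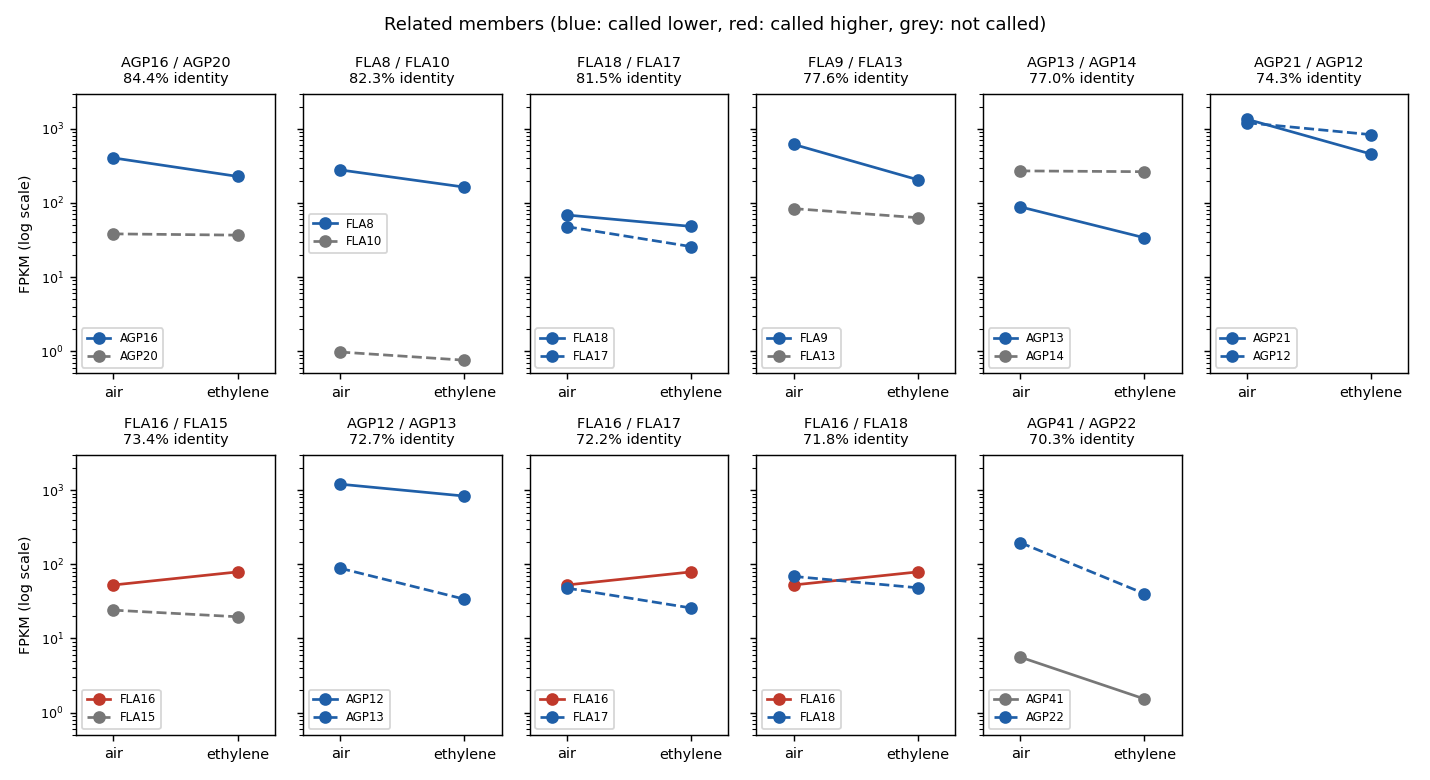
FPKM (log axis, the same in all panels) in air and ethylene for the 11 pairs of members with at least 70% identical coding sequence; colours give the authors' call and dashed lines the second gene named. The lines of FLA16 slope up and those of FLA17 and FLA18 down, while in 8 pairs both log2 changes have the same sign. Most members were lower in ethylene, and some genes are in several pairs.

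The level in air and the change were related only loosely among the AGP genes. Spearman's rho between the level in air and the log2 change was -0.28 over the 40 tested members, -0.11 over the 25 AGP genes and -0.53 over the 15 tested FLA genes. Over all 20786 tested entries naming a gene it was -0.11. These points share the same libraries, and the level in air enters both measures.

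**Figure D5:**
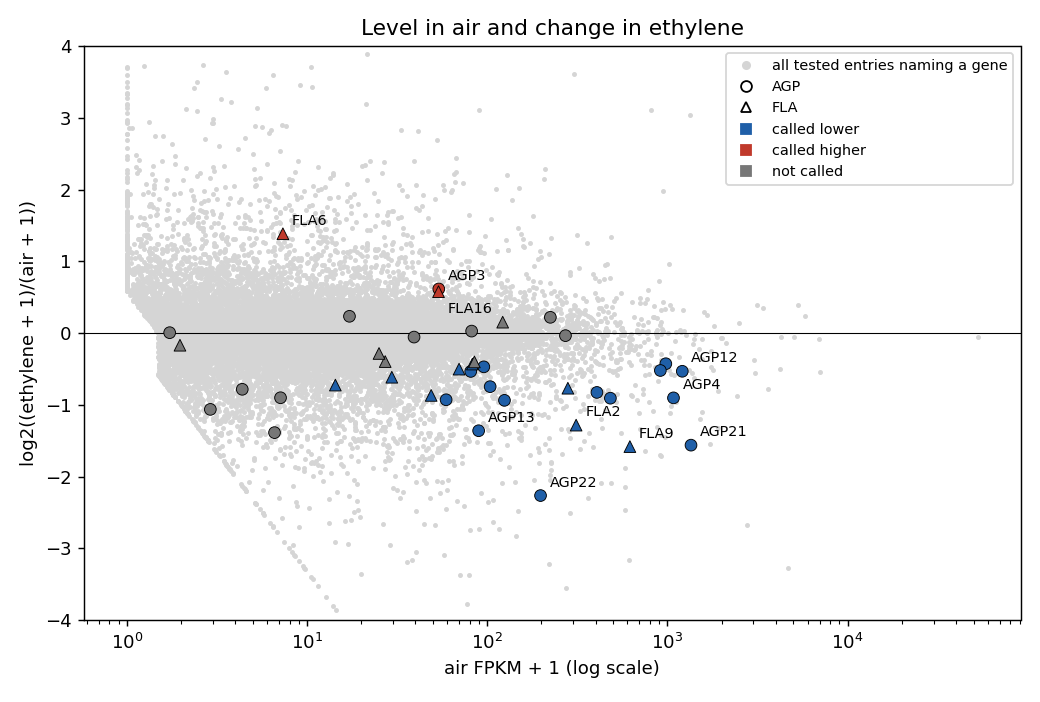
Log2((ethylene + 1)/(air + 1)) against air FPKM + 1 on a log axis for all tested entries naming a gene (grey), AGP genes (circles) and FLA genes (triangles), coloured by the authors' call; 105 entries beyond a log2 change of 4 in size fall outside the plot. Blue symbols sit below 0 from 13.4 FPKM up to 1351 FPKM in air.

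Genes of the same families that are not in the list were mostly low. The annotation holds 18 more genes with an AGP or FLA symbol or product, of which 8 were tested, 1 was called lower and none higher. For this and the other lists below, the shares over all tested entries naming a gene are 6.5% called lower, 4.79% called higher and 20.5% with an unadjusted p under 0.05. The called gene, AT4G16980, annotated as an arabinogalactan protein family gene, was at 194 FPKM in air against 54.5 in ethylene, with a log2 change of -1.81 and a deposited q of 0.000878. AGP7 was the most abundant of these genes, at 445 and 415 FPKM, and was not called. Its coding sequence is 70.1% identical to that of AGP4, which had a log2 change of -0.90. AGP25 was at 34.6 and 33.5 FPKM. The 10 untested genes were under 1 FPKM in both conditions.

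Many early nodulin-like proteins are chimeric arabinogalactan proteins with a plastocyanin-like domain. The genes were taken by annotated symbol or product name alone, and neither that domain nor arabinogalactan stretches were checked. The list includes AT5G25940, whose product name carries no ENODL number. Of the 23 genes so annotated, 14 were tested, 3 were called lower and 2 higher. ENODL17 was at 190.4 FPKM in air against 100.05 in ethylene, ENODL18 at 93.6 and 56.9, and ENODL2 at 88.6 and 61.9. ENODL19 was at 198 FPKM in air against 415 in ethylene, and ENODL1 at 22.7 and 48.6. All 5 had a deposited q of 0.00927 or less, and all but ENODL2 kept their call under the standard normal reading. ENODL8, among the most abundant, shares its entry with another locus at 269 and 239.9 FPKM, with no call. The median log2 change of the 14 was -0.08.

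Enzymes that build the sugar chains were read from a list of 20 genes for prolyl hydroxylation and for galactosyl, glucuronosyl, fucosyl and arabinosyl transfer. For some of its galactosyltransferase genes the annotation gives only the family product, not the listed name. All 20 were tested by Cuffdiff, 0 were called, beside 11.3% of all tested entries, and 1 had an unadjusted p under 0.05. Their median log2 change was 0.04. P4H5 and P4H2, prolyl hydroxylases, were the most abundant, at 63.1 and 47.6 FPKM in air and 71.0 and 48.0 in ethylene. The galactosyltransferase family gene AT5G53340 followed at 16.4 and 22.0 FPKM. The gene with the p under 0.05, named here after its values were seen, was GLCAT14B, a glucuronosyltransferase, at 17.1 and 12.0 FPKM (deposited q 0.0740). Of 4 genes for GPI anchor synthesis, PNT1, SETH1, SETH2 and APTG1, 0 were called and 0 had an unadjusted p under 0.05, and their log2 changes lay between -0.26 and 0.03. The most abundant of them, SETH2, was at 14.6 FPKM in air against 12.0 in ethylene. With the standard normal reading both lists again had 0 calls.

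Marker genes of cell types were read beside these changes. All 6 root hair markers were called higher, with log2 changes from 0.64 to 1.26 and summed levels of 64.5 FPKM in air against 123 in ethylene; 4 of the 6 calls held under the standard normal reading. EXPA7 and EXPA18, root hair expansins, were at 10.8 and 7.499 FPKM in air against 27.1 and 18.02 in ethylene. PRP3, a wall protein, was at 35.5 and 56.0 FPKM, and COBL9, LRX1 and the transcription factor gene RSL4 were under 10 FPKM in both conditions. Of the members, AGP3, FLA6 and FLA16 were also called higher, and of these only the call of FLA6 held under the standard normal reading. AGP14 was not called, and AGP21 was called lower. The part of root hair cells in the change of any member was not tested. Of 4 root markers (RHD6, SCR, SHR and PIN2) 0 were called and 1 had an unadjusted p under 0.05, and their summed level was 61.4 FPKM in air against 61.1 in ethylene. The 1 gene was RHD6, which also acts in root hair formation, at 2.80 and 4.66 FPKM (log2 change 0.57, deposited q 0.164). It stands outside the list of 6 root hair markers.

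Of 6 xylem secondary wall markers, 0 were called by Cuffdiff, with or without the standard normal reading, and 0 had an unadjusted p under 0.05. Their log2 changes ran from -0.13 to 0.26 and their sum was 307 FPKM in air against 353 in ethylene. The most abundant were the xylem peptidase genes XCP2, at 157 and 188 FPKM, and XCP1, at 86.8 and 103 FPKM. The cellulose synthase gene CESA4 followed, at 23.6 and 21.5 FPKM. FLA11 and FLA12 had lower values in ethylene, but FLA11 was not called. The call of FLA12 was lost at a q of 0.01 and under the standard normal reading. Of the 6 pollen markers, 5 were too low to be tested and the sixth, ANX1, was at 1.596 and 1.23 FPKM. VGD1, PPME1 and ANX2 were at 0 in at least 1 condition, and the pollen arabinogalactan protein genes AGP6 and AGP11 were under 0.3 FPKM. PORA, PORB and HLS1, markers of dark-grown cotyledons and the hook, were present at 397, 701 and 18.6 FPKM in air. All were called higher, at 583, 981 and 41.1 FPKM in ethylene. Of these calls only that of HLS1 held under the standard normal reading.

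Where entries share a span with another gene, the member's value can include reads of its neighbour. The spans of 7 members overlap other entries. For AGP16, FLA3, FLA11 and FLA16 the annotated genes themselves overlap, each with a gene on the opposite strand. The partner of AGP16, AT2G46320, was at 5.58 and 5.67 FPKM, and the long noncoding RNA AT2G35859 beside FLA16 was below 1 FPKM in both conditions. The 2 entries of AT5G03160, the partner of FLA11, were at 17.4 and 40.4 FPKM in air and 13.004 and 60.8 in ethylene, neither called, beside 26.2 and 19.6 for FLA11 itself. The entry of AGP21 overlaps 8 entries of AT1G55325, none above 7.37 FPKM, and that of AGP26 overlaps AT2G47920, at 1.63 and 1.48 FPKM, in both cases without overlap of the annotated genes. The entries of AT2G24440 beside FLA3 were at 3.64 and 11.5 FPKM in air and 3.14 and 3.897 in ethylene. AT1G68730, whose entry meets that of AGP19 without overlap of the annotated genes, was at 12.9 and 14.9 FPKM, above AGP19. The strand setting of the authors' counting is not given in the sources used here.

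Promoter windows of 300 bases, 250 before and 50 after each annotated gene start, were searched on both strands for 3 motifs, none of which contains another. ATGTAC, letters found in sites of the ethylene transcription factor EIN3, was found in 4 of 41 windows (9.76%), those of AGP10, AGP14, AGP30 and FLA2, and in 10.8% of all 27443 protein-coding genes. GCCGCC, the core of the GCC box bound by ethylene response factors, was in 0 of the 41 windows and in 2.57% of all. CACGTG, the G-box, was in 1 window, that of AGP2, and in 7.68% of all.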

How the data were processed

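RNA sequencing data of 4 libraries were used, 2 per condition, as deposited in a single gene-level table with Cuffdiff's columns. Per the submitters' processing notes, TopHat2 2.0.9 and Cuffdiff 2.2.1 were used with the TAIR10 build. Their settings and the annotation were not stated in the labels or the notes. The deposited values are FPKM, pooled per condition by the authors, per the file headers. The deposited p-values and q-values are those of the authors' Cuffdiff test, and the deposited test statistic, a score, was used for standard errors (log2 ratio divided by statistic). The deposited q equals Benjamini-Hochberg adjustment of p over 21076 tested entries to within 5.25e-07. Turned into normal quantiles, the deposited p-values were 1.43 times the statistic (median), so calls from the statistic were also computed.

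Ratios were recomputed from FPKM with a pseudocount of 1 for log2 changes, and of 0 for log2 ratios and folds. No count test was run, because the pooled FPKM give no counts. Depth and the precision it gives are unknown. A search of low values found no whole-fragment step (at best 32.9% within 0.1 of a whole multiple). It used pooled values and annotated gene lengths, so it could not settle the depth. Members and gene lists were chosen with earlier results of these data known. All members are reported: called ones and the most abundant ones in full. Of the other lists, called genes and the 3 most abundant are named. Left out were 4 list genes that the annotation was judged not to back. These were listed as AGM1, AGM2 and UUAT1 for the sugar chains and GPI8 for the GPI anchor. The counts of those lists do not cover them. Some galactosyltransferase genes were kept by their annotated product alone, without the listed name. Gene names, coordinates and sequences come from RefSeq TAIR10.1, and coding sequences were translated from it because no protein table was used here. All 41 annotated genes overlap their entry's span. Python 3.11.15, pandas 2.3.3, scipy 1.17.1 and Biopython 1.88 were used. The steps for adjustment, log2 change and scaling were run on simulated data with normal noise of known spread. That run did not imitate Cuffdiff, so it is no check of the authors' calls. The 4 FLA groups, the 70% identity limit and the 10 FPKM split were chosen after the values were seen.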

Additional observations from a re-analysis of the deposited data

How the results depend on the processing

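When the statistic was read against a standard normal curve, called AGP genes went from 14 to 9 lower and from 1 to 0 higher, and FLA genes from 8 to 4 lower and from 2 to 1 higher. The dark-grown cotyledon and hook markers went from 3 to 1 higher. The cause of the mismatch between statistic and p was not tested. With a q of 0.01 or less, AGP15, AGP26, FLA1 and FLA12 were no longer called, and 12 AGP and 6 FLA genes were lower. A minimum mean of 1 FPKM and the entry with the higher mean could not change the family counts. All called members had a mean above 10 FPKM, and each member had only 1 entry. Pseudocounts of 0.1 and 0, the minimum of 1 FPKM, and scaling by upper quartile or summed FPKM left both family medians negative. Each tested member's change moved by less than its standard error under the pseudocounts and scalings. Upper quartile and summed FPKM scaling shifted log2 ratios by only -0.010 and 0.009, too little to alter either outcome. A pseudocount cannot turn the sign of a member's change. Without AGP12 the AGP sum was 1.67-fold lower in ethylene, and without FLA9 the FLA sum 1.46-fold lower. These 2 genes were the highest of their families by mean. AGP12 alone was 1.45-fold lower, less than the whole AGP sum, so leaving it out had to raise that ratio. The sum without AGP21, the highest AGP gene in air at 1351 FPKM against 457 in ethylene, was not computed. No paired analysis was possible because the table gives 1 pooled value per condition and no value per library. For the same reason no replicate could be left out. Depth is unknown, and members under 10 FPKM have standard errors of up to 1.82 on the log2 scale.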
